A study of Mus musculus with 16 samples.

Results

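The Notch family examined here comprises 10 genes: the receptors *Notch1*, *Notch2*, *Notch3* and *Notch4*, the ligands *Dll1*, *Dll3*, *Jag1* and *Jag2*, and the Fringe glycosyltransferases *Lfng* and *Mfng*. The members were chosen by name, as the lines of the deposited tables that carry these symbols, among 55468 named lines on day 5 and 55471 on day 7. Each member stood on 1 line in both tables, and all 10 passed the filter of a mean of at least 0.1 TPM, a level that is corrected for transcript length and library size.

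The libraries came from neural stem cells (NSC) of the embryonic cortex of C57BL/6 mice at E15-16, dissected from pooled embryos of both sexes and grown as monolayers with serum and bFGF. All cultures carried a lentivirus, added the day after seeding, with either a scrambled shRNA (shRNA CON) or a single shRNA against the long non-coding RNA RUS (shRNA RUS). RNA was taken on day 5, when the cultures were switched to Neurobasal medium without bFGF to start differentiation, and on day 7, which gave 4 groups (shRNA CON and shRNA RUS on each day) of 4 libraries, 16 in all. The sources call the 4 libraries of a group replicates and do not state for these libraries whether they were separate cultures or isolations, so p-values measure the spread between these libraries, and with a single shRNA an effect of RUS and an effect of that hairpin cannot be told apart.

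Notch receptors are cleaved when a Delta or Jagged ligand on a neighbouring cell pulls on them, and the freed intracellular domain joins RBPJ and Mastermind proteins on DNA to switch on Hes and Hey repressors. In the developing cortex these repressors hold down proneural genes such as *Neurog2*, which themselves activate *Dll1*, so that radial glia with active Notch remain progenitors while neighbours that display *Dll1* move towards neurons. Fringe enzymes add a sugar to O-fucose on the receptor, which generally favours signalling by Delta over Jagged ligands.

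RUS itself, annotated as *Gm20754*, was at the edge of detection. On day 5 the scaled TPM was 0.216, 0.107, 0.171 and 0.154 in shRNA CON and 0.0543, 0, 0.128 and 0.317 in shRNA RUS, and on day 7 it was 0.706, 0.715, 0.258 and 0.543 in shRNA CON and 0.542, 0.380, 0 and 0.0396 in shRNA RUS. Scaled TPM are deposited values after removal of a factor per library, taken from the median ratio of its genes to their geometric means over the libraries of that day. The groups overlapped on both days and *Gm20754* did not pass the test (log2 fold change -0.40 ± 0.44 (SE), limma adjusted p = 0.519 on day 5, and -1.28 ± 0.61, limma adjusted p = 0.114 on day 7), so these values do not check the labels. All 7 markers of radial glia and NSC had a mean of at least 1 TPM in each of the 4 groups, as had all 6 neuronal and all 5 astrocytic markers.

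Read numbers cannot be recovered from TPM and the depth behind these values is unknown; between 25615 and 29126 lines per library were above 0. The library factors ranged from 0.920 to 1.11 on day 5, where those of shRNA RUS were the lower ones, and from 0.991 to 1.01 on day 7. With TPM as deposited, the median log2 fold change of all tested genes on day 5 was -0.21 in place of -0.06, and 22.7% in place of 45.4% of all called genes were higher in shRNA RUS (33.2% with scaling to the 75th percentile). Between the days, TPM as deposited moved the share of calls that were higher on day 7 from 55.5% to 71.4% in shRNA CON and from 57.5% to 76.9% in shRNA RUS, and the positive share of the calls for the difference between the days from 51.2% to 73.5%. Directions of members that depend on the scaling are named with their results. Replicate 4 of shRNA RUS stood apart on day 5: without it, 17.4% of genes were called higher and 20.3% lower, the most of all 8 such omissions, and 1 member was called higher (*Notch4*) and 7 lower.

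By GENCODE vM21 on GRCm38, the build the authors used though not their annotation release, *Notch1* lies on chromosome 2 (26457903 to 26516663, minus strand), *Notch2* on chromosome 3 (98013527 to 98150361, plus strand), *Notch3* on chromosome 17 (32120820 to 32166852, minus strand) and *Notch4* on chromosome 17 (34564268 to 34588503, plus strand). Of the ligands, *Dll1* lies on chromosome 17 (15367354 to 15376872, minus strand), *Dll3* on chromosome 7 (28293553 to 28302238, minus strand), *Jag1* on chromosome 2 (137081456 to 137116644, minus strand) and *Jag2* on chromosome 12 (112907819 to 112929776, minus strand). *Lfng* lies on chromosome 5 (140607320 to 140615545, plus strand) and *Mfng* on chromosome 15 (78755882 to 78773475, minus strand). Annotated genes of either strand overlap *Notch1* (3 genes), *Notch2* (2 genes), *Notch3*, *Notch4*, *Dll1* and *Jag2* (1 gene each), and none overlap *Dll3*, *Jag1*, *Lfng* and *Mfng*. No source states that strand was kept, and reads of a member and of an overlapping gene then cannot be told apart.

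RefSeq promoter windows of GRCm38.p6 were given for 9 of the 10 members, all except *Mfng*. The 250 bases before the RefSeq start are printed for the members that carry the results below, *Lfng* as the member with the lowest fold change on day 5 and *Notch1* and *Notch2* as the receptors that changed sign between the days. Capitals mark the RBPJ core TGGGAA and the GC box GGGCGG, each on either strand. The windows lie at chr5:140607091-140607340 on the plus strand for *Lfng*, chr2:26503823-26504072 on the minus strand for *Notch1* and chr3:98013288-98013537 on the plus strand for *Notch2*. The *Notch1* window lies within the gene as GENCODE bounds it, since other transcripts start further upstream.
*Lfng*: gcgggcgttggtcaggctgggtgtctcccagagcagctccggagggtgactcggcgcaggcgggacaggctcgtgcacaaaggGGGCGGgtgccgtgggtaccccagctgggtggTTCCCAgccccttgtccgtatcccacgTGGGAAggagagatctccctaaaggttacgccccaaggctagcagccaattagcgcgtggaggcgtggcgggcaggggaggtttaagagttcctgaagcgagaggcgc
*Notch1*: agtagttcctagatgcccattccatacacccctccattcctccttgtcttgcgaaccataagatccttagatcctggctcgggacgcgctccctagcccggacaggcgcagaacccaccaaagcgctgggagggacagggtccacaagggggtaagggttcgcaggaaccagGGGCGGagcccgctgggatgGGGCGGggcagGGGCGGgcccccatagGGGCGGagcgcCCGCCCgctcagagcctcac
*Notch2*: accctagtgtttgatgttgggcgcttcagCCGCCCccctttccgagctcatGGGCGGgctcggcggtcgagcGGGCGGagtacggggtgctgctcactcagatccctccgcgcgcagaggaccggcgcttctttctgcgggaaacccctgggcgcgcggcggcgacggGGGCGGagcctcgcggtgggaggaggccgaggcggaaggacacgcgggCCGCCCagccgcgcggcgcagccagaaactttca
The *Lfng* window held 2 RBPJ cores in opposite orientation, beginning 135 and 108 bases before the start, and none of the other 9 member windows held one, against 21.6% of all 32851 promoter windows of the same length. The core at 108 bases shares 2 bases with an E-box (CACGTG), and a second E-box (CAGCTG) begins 146 bases before the start. The GC box was found 5 times before *Notch1* and 5 times before *Notch2*, and 6 of the 10 member windows held at least 1, against 32.7% of all windows. E-boxes (CANNTG), the sites of proneural and Hes factors among many others, were found in 6 of the 10 member windows, among them 3 in one of the 2 windows of *Dll1*, against 66.2% of all windows. GC content of the member windows ranged from 52.0% to 87.2%, with a median of 52.4% over all windows. These letters describe the windows and say nothing of binding.

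*Lfng* was the most abundant member in 3 of the 4 groups, followed by *Notch1* and *Notch2*, whereas *Notch4* was the lowest in all 4. On day 5 in shRNA CON the means of scaled TPM ran from *Lfng* over *Notch1*, *Notch2*, *Dll1*, *Notch3*, *Mfng*, *Dll3*, *Jag1* and *Jag2* to *Notch4*, and in this order only *Dll1* and *Notch3* overlapped as neighbours. The order in shRNA RUS on day 5 was the same, with overlap of *Dll1* with *Notch3* and of *Dll3* with *Jag1*. On day 7 in shRNA CON, *Notch2* and *Notch1* overlapped (means of 39.4 and 39.3 scaled TPM), as did *Notch3* with *Mfng* and *Mfng* with *Jag2*. On day 7 in shRNA RUS, *Notch2* led with a mean of 80.6 scaled TPM (range 71.1 to 85.6), which overlapped with *Lfng* at its lower end, and the 5 genes *Notch3*, *Jag2*, *Mfng*, *Jag1* and *Dll3* overlapped from neighbour to neighbour. The plot of all libraries shows these levels gene by gene.

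**Figure D1:**
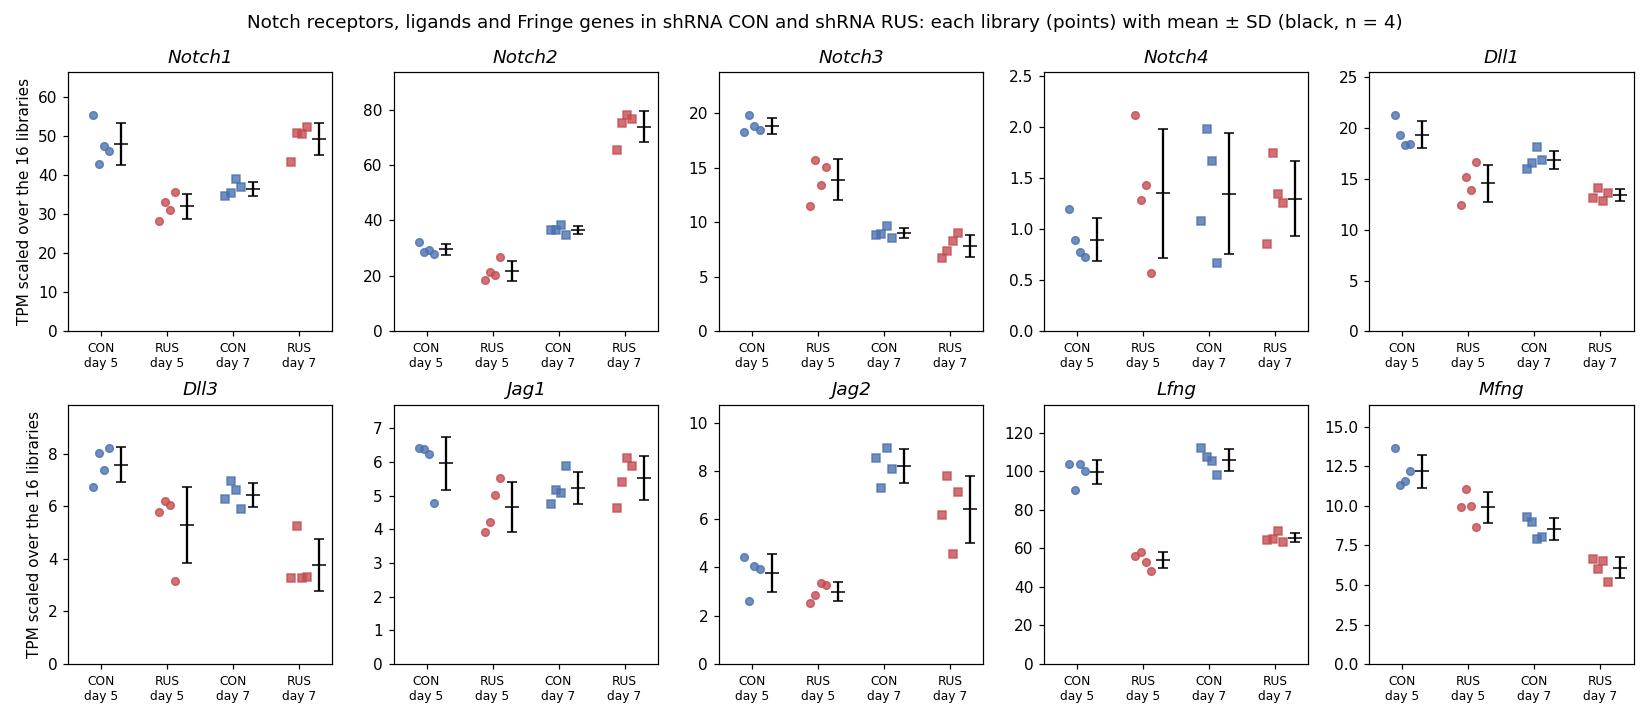
Level of each of the 10 genes in each library, with 1 panel per gene. The vertical axis is TPM scaled over the 16 libraries, starting at 0, points are libraries (circles day 5, squares day 7, blue shRNA CON, red shRNA RUS) and black bars are the mean ± SD of 4 libraries; *Notch2* stands highest in shRNA RUS on day 7 (73.8 ± 5.7), and *Lfng* is lower in shRNA RUS than in shRNA CON on both days.

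Shares of a class do not depend on the scaling between libraries, and they showed a shift among the receptors. On day 5, *Notch1* made up 49.2% ± 2.2 (SD, n = 4) of the summed receptor TPM in shRNA CON and 46.3% ± 0.55 in shRNA RUS, with *Notch2* at 30.4% ± 0.48 and 31.5% ± 2.0. On day 7, *Notch2* made up 43.9% ± 0.91 in shRNA CON and 55.9% ± 0.63 in shRNA RUS, and *Notch1* 43.7% ± 1.4 and 37.2% ± 0.48. *Notch2* exceeded *Notch1* in every shRNA RUS library of day 7, where the ratio of *Notch2* to *Notch1* lay between 1.47 and 1.55, while it lay between 0.943 and 1.06 in shRNA CON. The share of *Notch3* was 19.5% ± 1.8 in shRNA CON against 20.1% ± 1.4 in shRNA RUS on day 5, and 10.8% ± 0.15 and 5.92% ± 0.43 on day 7. *Notch4* contributed between 0.731% and 3.52% in any library.

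Among the 4 ligands, *Dll1* held the largest share of the summed TPM in each group, 52.8% ± 1.6 in shRNA CON against 52.8% ± 4.1 in shRNA RUS on day 5, and 45.9% ± 0.72 and 46.2% ± 2.3 on day 7. *Jag2* rose in share from 10.3% ± 2.0 on day 5 to 22.3% ± 1.6 on day 7 in shRNA CON, and from 10.9% ± 0.91 to 21.9% ± 3.3 in shRNA RUS. The ligand shares of the 2 shRNAs overlapped for *Dll1*, *Dll3* and *Jag2* on both days and for *Jag1* on day 5. On day 7 the share of *Jag1* was 13.1% to 16.0% in shRNA CON and 16.7% to 22.9% in shRNA RUS, without overlap. Summed over a class on the 16-library scale, receptors amounted to 97.1 ± 6.8 TPM in shRNA CON against 69.0 ± 7.6 in shRNA RUS on day 5, and to 83.2 ± 3.6 and 132 ± 11 on day 7. Ligands amounted to 36.7 ± 1.5 and 27.5 ± 1.9 on day 5 and to 36.8 ± 1.4 and 29.1 ± 2.7 on day 7. The receptor sum in shRNA RUS was therefore below the control on day 5 and above it on day 7, in every library. The sum of these 4 ligands was below the control on both days, in every library. Other ligands of the pathway are not in this sum, and these sums are descriptions without a test.

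**Figure D2:**
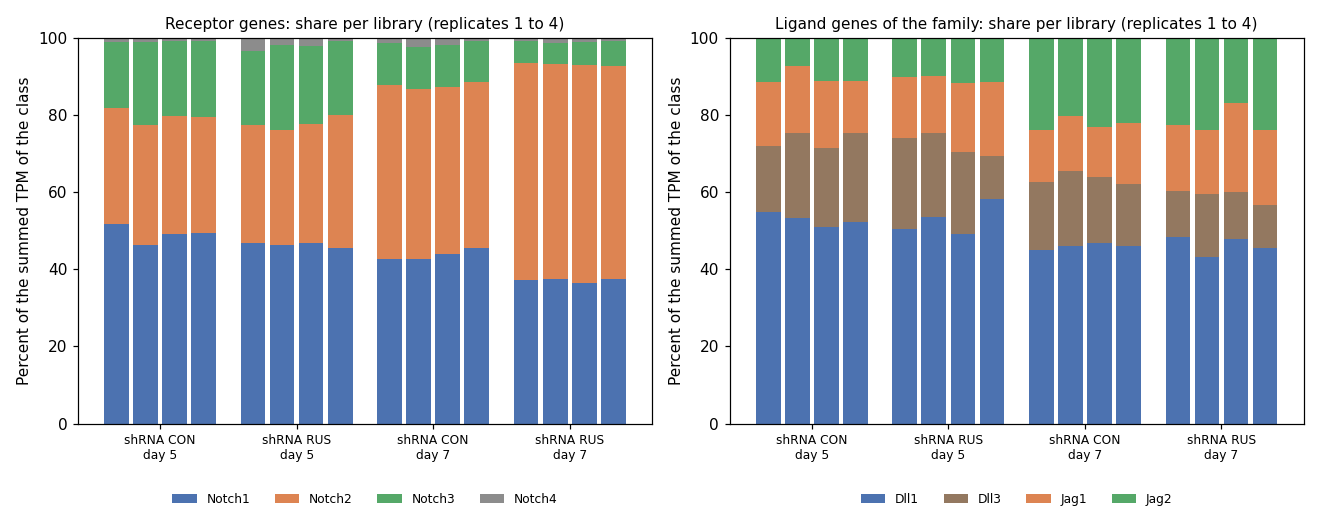
Share of each receptor (left) and each ligand (right) in the summed TPM of its class, in percent, with 1 stacked bar per library and replicates 1 to 4 side by side in each group. The *Notch2* block fills between 55.1% and 56.5% of the receptor bars in shRNA RUS on day 7 and between 43.0% and 45.0% in shRNA CON.

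To ask how the shRNA against RUS bears on the family, it was compared with shRNA CON on each day. On day 5, 6 of the 10 members were lower in shRNA RUS (*Notch1*, *Notch2*, *Notch3*, *Dll1*, *Lfng* and *Mfng*) and none higher, at a limma adjusted p under 0.05. Over all 22581 genes tested, 17.9% were lower and 14.8% higher. The median log2 fold change was -0.43 over the members and -0.06 over all genes, and 7 members did not overlap between the groups, all of them lower in shRNA RUS. Of all genes tested on day 5, 18.7% were lower and 14.1% higher in shRNA RUS without overlap of the groups.

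Among the receptors, *Notch1*, the receptor best known for maintaining cortical radial glia, was at 50.6, 39.3, 43.8 and 42.3 scaled TPM in shRNA CON on day 5 and at 25.8, 30.6, 28.5 and 32.7 in shRNA RUS. Every shRNA RUS library lay below every control library, and limma gave -0.58 ± 0.09 (log2 fold change ± SE, adjusted p = 0.00164), or 0.670-fold. *Notch2*, its close relative, was at 29.5, 26.4, 27.0 and 25.8 in shRNA CON and at 17.0, 19.8, 18.9 and 24.8 in shRNA RUS (-0.45 ± 0.11, adjusted p = 0.0118). The groups did not overlap, but replicate 4 of shRNA RUS came close to the controls, and without it the log2 fold change was -0.55 (adjusted p = 0.000621). *Notch3*, in the brain also a receptor of mural cells, fell from 16.7 to 18.2 scaled TPM in shRNA CON to 10.5 to 14.6 in shRNA RUS (-0.44 ± 0.10, adjusted p = 0.00816). *Notch4*, known mainly from endothelium, was at 0.672 to 1.10 scaled TPM in shRNA CON and 0.525 to 1.95 in shRNA RUS and did not pass the test (0.44 ± 0.33, adjusted p = 0.349). Without replicate 4 of shRNA RUS, its lowest value, *Notch4* did pass (0.77, adjusted p = 0.0267), and without replicate 1 of shRNA RUS the value was 0.20 (adjusted p = 0.672).

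Of the ligands, *Dll1*, the Delta ligand that proneural factors switch on, was at 19.5, 17.8, 17.0 and 17.0 scaled TPM in shRNA CON on day 5 and at 11.4, 14.1, 12.8 and 15.4 in shRNA RUS. The groups did not overlap, and limma gave -0.41 ± 0.10 (log2 fold change ± SE, adjusted p = 0.00978). *Dll3*, a divergent Delta protein that does not activate receptors on neighbouring cells, was at 6.16 to 7.58 in shRNA CON and 2.90 to 5.74 in shRNA RUS, without overlap, and its adjusted p was 0.0642 (-0.55 ± 0.20). The lowest of these values was replicate 4 of shRNA RUS, and without it the difference was smaller (-0.32) but passed the test (adjusted p = 0.0230), as it did with TPM as deposited (-0.71), with scaling to the 75th percentile (-0.63) and with a filter at 1 TPM. *Jag1* (4.40 to 5.88 in shRNA CON, 3.59 to 5.08 in shRNA RUS; -0.35 ± 0.14, adjusted p = 0.0847) and *Jag2* (2.42 to 4.06 and 2.30 to 3.09; -0.30 ± 0.17, adjusted p = 0.209), the Serrate-type ligands, overlapped between the groups. *Jag1* passed without replicate 4 of shRNA CON or of shRNA RUS and with TPM as deposited, and *Jag2* passed without replicate 2 of shRNA CON.

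The Fringe gene *Lfng* showed the lowest fold change of the family on day 5. It was at 95.0, 83.2, 95.8 and 92.3 scaled TPM in shRNA CON and at 51.6, 53.9, 48.8 and 44.5 in shRNA RUS, which is 0.543-fold (-0.88 ± 0.07, log2 fold change ± SE from limma, adjusted p = 4.97e-05). The gap between the groups was wider than the range of either group. *Mfng*, its lower expressed relative, was at 10.4 to 12.5 scaled TPM in shRNA CON and 7.95 to 10.2 in shRNA RUS (-0.29 ± 0.09, adjusted p = 0.0372). This call was the least stable of the 6: it was lost without replicate 1, 3 or 4 of shRNA CON or of shRNA RUS (-0.35 to -0.23 over all 8 omissions), with quantile normalization, without the filter, without the trend in eBayes and with the replicate block, with adjusted p up to 0.159 under quantile normalization. Under TPM as deposited, quantile normalization and scaling to the 75th percentile, no member changed direction on day 5.

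On day 7 *Notch1* and *Notch2* parted from the rest of the family. Both were higher in shRNA RUS, and *Dll1*, *Dll3*, *Lfng* and *Mfng* were lower, so that 2 of the 10 members were called higher and 4 lower. Over all 24606 genes tested, 23.4% were higher and 25.8% lower. Without overlap of the groups, 2 members were higher and 4 lower in shRNA RUS, against 22.3% and 24.7% of all genes. The median log2 fold change was -0.25 over the members and -0.03 over all genes.

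*Notch2* was at 39.4, 39.4, 41.5 and 37.2 scaled TPM in shRNA CON on day 7 and at 71.1, 82.1, 85.6 and 83.5 in shRNA RUS. The level was 2.04-fold higher (1.03 ± 0.06, log2 fold change ± SE from limma, adjusted p = 1.35e-06), and the log2 value stayed between 0.998 and 1.09 when any 1 library was left out. *Notch1* was at 37.4, 38.2, 42.0 and 39.5 in shRNA CON and at 46.8, 55.4, 55.4 and 56.8 in shRNA RUS (0.45 ± 0.07, adjusted p = 0.000393). Both receptors were higher in all 4 shRNA RUS libraries than in any control library, and neither changed direction or lost its call under any alternative tried. *Notch3* overlapped between the groups (9.17 to 10.4 in shRNA CON, 7.26 to 9.78 in shRNA RUS) and did not pass (-0.19 ± 0.09, adjusted p = 0.134), although it was called lower with scaling to the 75th percentile (adjusted p = 0.0379) and without replicate 4 of shRNA RUS (-0.25, adjusted p = 0.0443). Without replicate 1 of shRNA RUS the value was -0.11 (adjusted p = 0.304). *Notch4* was at 0.713 to 2.15 scaled TPM in shRNA CON and 0.924 to 1.91 in shRNA RUS (0.03 ± 0.33, adjusted p = 0.959), and the sign of this value changed with scaling to the 75th percentile and without any 1 of 4 libraries.

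*Dll1* was at 17.3, 17.9, 19.6 and 18.1 scaled TPM in shRNA CON on day 7 and at 14.2, 15.4, 14.0 and 14.8 in shRNA RUS, without overlap (-0.32 ± 0.05 (SE), limma adjusted p = 0.000968). *Dll3* was at 6.33 to 7.55 in shRNA CON and at 3.54, 5.74, 3.60 and 3.59 in shRNA RUS (-0.77 ± 0.15, adjusted p = 0.00228), the lowest fold change of the family on that day. A single library, replicate 2, held the level of *Dll3* in shRNA RUS up, and without it the log2 fold change was -0.94. *Jag1* was at 5.15 to 6.30 in shRNA CON and 5.03 to 6.71 in shRNA RUS (0.09 ± 0.10, adjusted p = 0.522). *Jag2* was at 7.90 to 9.69 and 4.98 to 8.49 (-0.36 ± 0.15, adjusted p = 0.0753), and passed with scaling to the 75th percentile and without replicate 2 of shRNA RUS (-0.47). Without replicate 3 of shRNA RUS its value was -0.21 (adjusted p = 0.130). Neither Jagged gene was separated between the groups, while both Delta genes were lower in every shRNA RUS library.

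*Lfng* was at 121, 116, 114 and 105 scaled TPM in shRNA CON on day 7 and at 70.1, 70.7, 75.5 and 69.1 in shRNA RUS, which is 0.625-fold (-0.68 ± 0.05, log2 fold change ± SE from limma, adjusted p = 4.02e-06). *Mfng* was at 8.57 to 10.1 in shRNA CON and 5.63 to 7.19 in shRNA RUS (-0.48 ± 0.09, adjusted p = 0.00230). Both Fringe genes were lower in all shRNA RUS libraries of day 7, and neither call was lost under any alternative. *Rfng*, the third Fringe gene, which is no member of the list followed here, was higher in shRNA RUS on day 7 (0.33 ± 0.07, adjusted p = 0.00526) and did not pass on day 5 (-0.07 ± 0.09, adjusted p = 0.616). The ratio of *Lfng* to *Rfng* TPM within a library was 8.09 ± 0.38 (SD, n = 4) in shRNA CON against 4.63 ± 0.57 in shRNA RUS on day 5, and 9.34 ± 0.62 and 4.65 ± 0.41 on day 7.

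**Figure D3:**
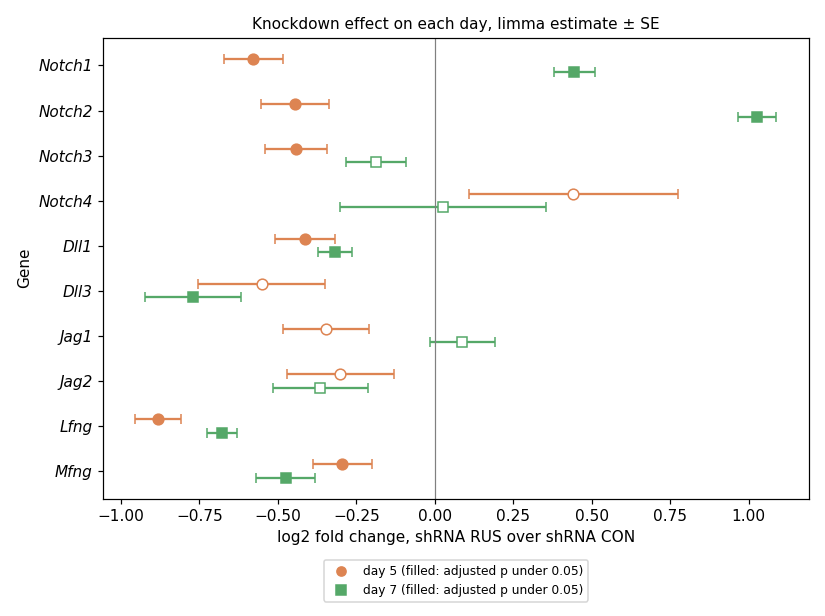
Knockdown effect on the 10 genes, as log2 fold change of shRNA RUS over shRNA CON (horizontal axis) with its SE from limma, on day 5 (orange circles) and day 7 (green squares); filled symbols passed an adjusted p of 0.05. *Notch1* and *Notch2* lie left of 0 on day 5 (-0.58 and -0.45) and right of it on day 7 (0.45 and 1.03), while *Dll1*, *Dll3*, *Lfng* and *Mfng* lie left of 0 on both days.

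Whether the knockdown effect differed between the days was tested as an interaction in a single fit of the 16 libraries. The test called 2 of the 10 members, *Notch1* and *Notch2*, both with a more positive effect on day 7, and none with a more negative one, against 15.3% and 14.6% of all 23699 genes tested. The difference of the log2 fold changes was 1.01 ± 0.12 (SE; limma adjusted p = 2.91e-05) for *Notch1* and 1.46 ± 0.13 (limma adjusted p = 3.18e-06) for *Notch2*. These differences lay between 0.942 and 1.07 and between 1.38 and 1.57 when any 1 library was left out. For *Notch3* (0.24 ± 0.14, adjusted p = 0.208), *Dll1* (0.08 ± 0.11, adjusted p = 0.619), *Dll3* (-0.23 ± 0.27, adjusted p = 0.568), *Lfng* (0.19 ± 0.09, adjusted p = 0.113) and *Mfng* (-0.19 ± 0.13, adjusted p = 0.309), no difference between the days passed the test. Neither did *Jag1* (0.42 ± 0.18, adjusted p = 0.0876), *Jag2* (-0.07 ± 0.24, adjusted p = 0.851, with a sign that turned with TPM as deposited) or *Notch4* (-0.43 ± 0.50, adjusted p = 0.562). With TPM as deposited, which shifts the median of all genes in this comparison to 0.19, *Jag1* (0.59) and *Lfng* (0.36) were called as well. *Jag1* was also called without replicate 4 of shRNA CON or of shRNA RUS on day 5 and without replicate 1 of shRNA RUS on day 7 (0.50 to 0.52), and *Lfng* without replicate 2 of shRNA CON on day 5 (0.24).

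The change from day 5 to day 7 in the control cultures describes the family during early differentiation. In shRNA CON, *Notch2* and *Jag2* were higher on day 7 and *Notch1*, *Notch3* and *Mfng* lower, that is 2 of the 10 members higher and 3 lower, against 26.9% and 21.6% of all 23699 genes. *Jag2* went from 3.77 ± 0.79 (SD, n = 4) to 8.21 ± 0.71 TPM on the 16-library scale (1.12 ± 0.17, log2 fold change ± SE from limma, adjusted p = 4.98e-05). *Notch3* went from 18.8 ± 0.71 to 8.97 ± 0.46 (-1.06 ± 0.10, adjusted p = 2.73e-07). These were the largest changes of the family in the control, and neither gene overlapped between the days. *Notch1* fell from 47.8 ± 5.3 to 36.4 ± 1.9 (-0.39 ± 0.09, adjusted p = 0.00129), a call lost with TPM as deposited (-0.24, adjusted p = 0.0727). *Notch2* rose from 29.5 ± 1.8 to 36.5 ± 1.5 (0.30 ± 0.09, adjusted p = 0.0116), and *Mfng* fell from 12.2 ± 1.1 to 8.55 ± 0.69 (-0.51 ± 0.09, adjusted p = 0.000356).

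*Dll1* (-0.20 ± 0.08, adjusted p = 0.0528) and *Lfng* (0.09 ± 0.06, adjusted p = 0.260) did not pass in shRNA CON, and neither did *Dll3* (-0.23 ± 0.19, adjusted p = 0.341), *Jag1* (-0.18 ± 0.13, adjusted p = 0.259) or *Notch4* (0.46 ± 0.35, adjusted p = 0.307). *Dll1* did pass with a filter at 1 TPM, without any of 3 libraries (replicates 1 and 4 of shRNA RUS on day 5 and replicate 3 of shRNA CON on day 7, -0.23 to -0.20) and with quantile normalization (-0.27), as did *Jag1* under the last (-0.32), and *Lfng* passed with TPM as deposited (0.24) and with quantile normalization (0.21). The count of members lower on day 7 was thereby 5 under quantile normalization.

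In shRNA RUS, 4 of the 10 members were higher on day 7 (*Notch1*, *Notch2*, *Jag2* and *Lfng*) and 3 lower (*Notch3*, *Dll3* and *Mfng*), against 35.0% and 25.8% of all genes. *Notch2* went from 21.8 ± 3.6 (SD, n = 4) to 73.8 ± 5.7 TPM on the 16-library scale, a 3.40-fold rise (1.77 ± 0.09, log2 fold change ± SE from limma, adjusted p = 2.85e-10). *Notch1* rose from 31.9 ± 3.2 to 49.1 ± 4.0 (0.62 ± 0.09, adjusted p = 1.07e-05), where the control had gone down. *Notch3* (-0.82 ± 0.10), *Mfng* (-0.70 ± 0.09) and *Jag2* (1.05 ± 0.17) moved in the direction seen in the control, each with an adjusted p of at most 5.92e-05. *Lfng* rose from 54.0 ± 4.3 to 65.4 ± 2.3 (0.28 ± 0.06, adjusted p = 0.000966). The fall of *Dll3* (-0.46 ± 0.19, adjusted p = 0.0470) rested on the threshold, and was lost in 14 of the 16 fits that each left out 1 library (-0.69 to -0.37), all except those without replicate 4 of shRNA RUS on day 5 or replicate 2 on day 7. It was also lost with TPM as deposited (-0.14, adjusted p = 0.491), with scaling to the 75th percentile (-0.36, adjusted p = 0.106), without the filter (adjusted p = 0.0746) and without the trend in eBayes (adjusted p = 0.0599). *Dll1* (-0.11 ± 0.08) and *Jag1* (0.24 ± 0.13) did not pass, and the sign of *Dll1* turned with TPM as deposited (0.21). *Dll1* was called lower with quantile normalization (-0.24) and without replicate 1 of shRNA RUS on day 5 (-0.19). *Jag1* was called higher with TPM as deposited (0.56), with scaling to the 75th percentile (0.34), and without replicate 4 of shRNA RUS on day 5 or replicate 1 on day 7 (0.33 and 0.32). *Notch4* did not pass (0.03 ± 0.35, adjusted p = 0.954), and its sign turned with quantile normalization (-0.28).

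**Figure D4:**
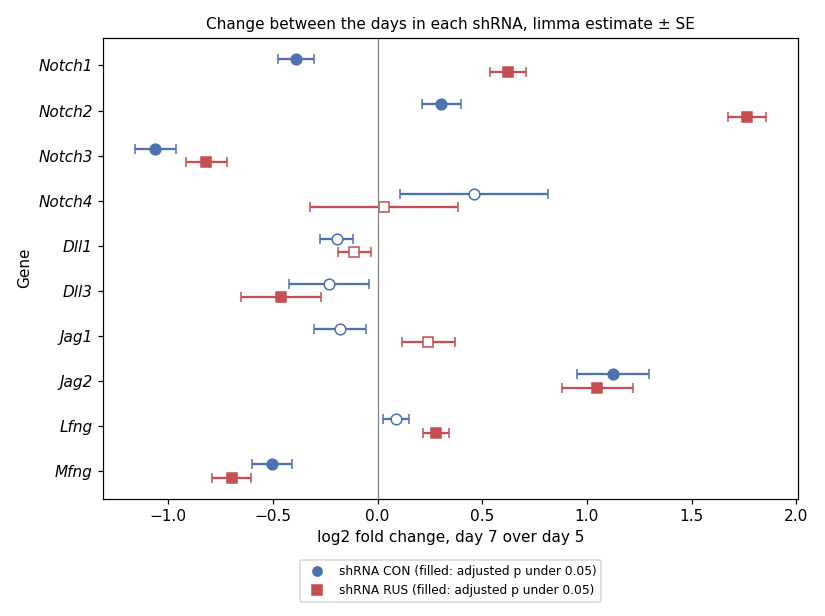
Change of the 10 genes between the days, as log2 fold change of day 7 over day 5 (horizontal axis) with its SE from limma, in shRNA CON (blue circles) and shRNA RUS (red squares); filled symbols passed an adjusted p of 0.05. *Notch1* lies at -0.39 in shRNA CON and at 0.62 in shRNA RUS, and *Notch2* at 0.30 and 1.77, while *Notch3*, *Jag2* and *Mfng* lie on the same side of 0 in both.

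Around the family, 45 other genes of the pathway were counted by role. On day 5, 43 of them were tested, of which 15 were higher in shRNA RUS, 7 lower and 21 not called (median log2 fold change 0.11), beside 14.8% higher and 17.9% lower among all genes. On day 7, 28 of 44 tested were higher, 10 lower and 6 not called (median 0.32), beside 23.4% higher and 25.8% lower among all genes. No test of these genes against all others was run. The 9 proteases of the ligand-induced cleavages (ADAM and gamma-secretase genes) were higher in 5 cases on day 5 and in 7 on day 7, and lower only in the case of *Aph1b* on each day. Of the 3 genes that modify or first cleave the receptor (*Pofut1*, *Poglut1* and *Furin*), 2 were higher on day 5 and 3 on day 7.

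Of the 7 genes of the nuclear complex, 2 were higher on day 5 and 6 on day 7, and none lower. *Maml1*, a coactivator that binds the receptor's intracellular domain, was higher by 0.68 ± 0.06 (SE; limma adjusted p = 8.49e-05) on day 5 and by 1.45 ± 0.06 (limma adjusted p = 2.63e-07) on day 7. *Psenen*, the gamma-secretase subunit, was higher on day 5 (0.68 ± 0.07, adjusted p = 0.000128) and on day 7 (0.36 ± 0.04, adjusted p = 5.47e-05). Of the 8 regulators of receptor uptake and turnover, 5 were higher and 2 lower on each day. The lower ones were *Dtx4* and *Itch*, a ubiquitin ligase that acts on Notch. *Itch* changed by -0.46 ± 0.12 on day 5 (adjusted p = 0.0164) and by -0.18 ± 0.06 on day 7 (adjusted p = 0.0381), and the groups overlapped on day 7, where the call was lost in 9 of 17 alternatives.

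Of the 5 other ligands and Fringe genes, none was called on day 5, and on day 7 *Dll4*, *Dlk2*, *Dner* and *Rfng* were higher and *Dlk1* lower. *Dll4*, a Delta ligand known mainly from vessels, was at 0.594 ± 0.153 scaled TPM (SD, n = 4) in shRNA CON against 1.53 ± 0.42 in shRNA RUS on day 7 (1.22 ± 0.22, adjusted p = 0.00137). *Dlk1*, a Delta-like protein without the domain that binds Notch, was lower (-0.82 ± 0.11, adjusted p = 0.000195). Among the 4 ubiquitin ligases that make ligands active, *Neurl1b* was lower on both days (-0.51 ± 0.08, adjusted p = 0.00114, and -0.64 ± 0.09, adjusted p = 0.000276), and *Mib1* and *Mib2* were higher on day 7.

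Target genes went in different directions. On day 5, 2 of the 5 targets tested were lower and 1 higher, and on day 7, 4 of 6 were lower and 1 higher. *Heyl* was among these 4, at means of 0.238 TPM in shRNA CON and 0.030 TPM in shRNA RUS. It reached the filter only through its level in shRNA CON, so its call carries no weight. *Hes1*, a direct target and repressor of proneural genes, was at 12.5 to 19.1 scaled TPM in shRNA CON against 4.73 to 6.82 in shRNA RUS on day 5 (-1.31 ± 0.15, adjusted p = 0.000223), and at 24.7 to 30.5 and 14.8 to 17.4 on day 7 (-0.78 ± 0.08, adjusted p = 2.57e-05). *Hes5*, another direct target, was lower on both days (-0.67 ± 0.21, adjusted p = 0.0357, and -0.83 ± 0.17, adjusted p = 0.00304), although the groups overlapped on day 5 and that call was lost in 9 of 17 alternatives. *Hey2* was higher on both days (1.12 ± 0.08, adjusted p = 3.08e-05, and 0.64 ± 0.08, adjusted p = 9.11e-05). *Neurog2*, a proneural activator of *Dll1*, was lower on day 7 (-1.30 ± 0.27, adjusted p = 0.00315) and did not pass on day 5 (-0.17 ± 0.26, adjusted p = 0.652), and *Neurog1* was below the filter. On day 7, *Hes1* and *Hes5* were lower in the same libraries in which *Notch1*, *Notch2* and *Maml1* were higher.

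**Figure D5:**
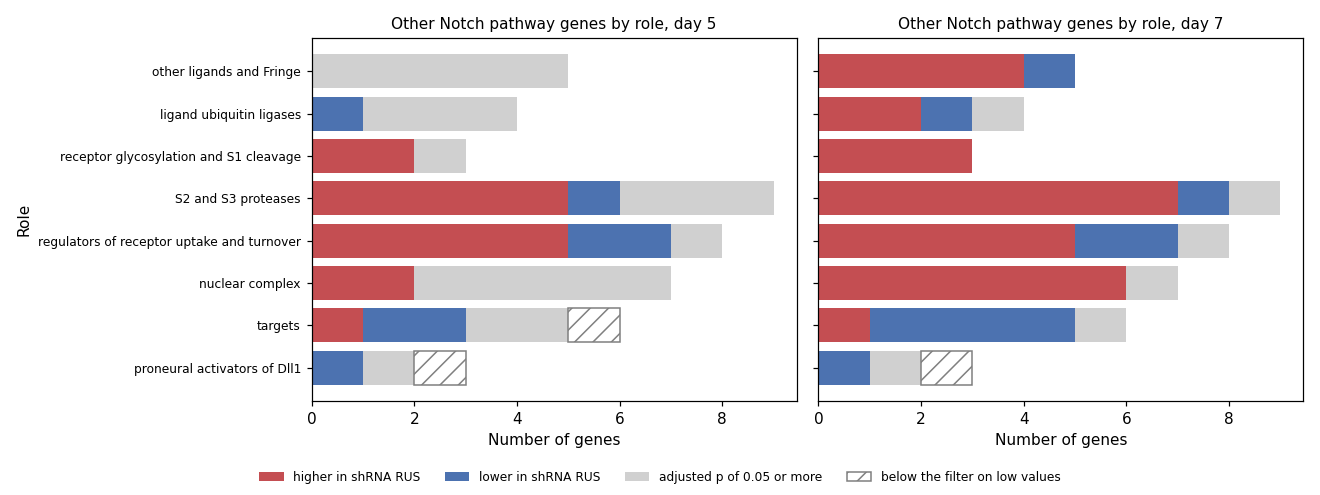
Number of other Notch pathway genes by role (vertical axis) that were higher (red) or lower (blue) in shRNA RUS, did not pass an adjusted p of 0.05 (grey) or were below the filter on low values (hatched), for day 5 in the left and day 7 in the right panel. Red bars make up 6 of the 7 genes of the nuclear complex and 7 of the 9 proteases on day 7, and blue bars 4 of the 6 targets. *Heyl*, among these 4, reached the filter only through its level in shRNA CON.

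Bulk RNA cannot tell fewer cells of a type from less RNA per cell, so marker levels are given beside these results, and their part in them was not tested. Beside the marker counts, 17.9% of all genes were called lower and 14.8% higher in shRNA RUS on day 5. On day 7, 25.8% were called lower and 23.4% higher. All 4 markers of oligodendrocyte precursors, glial precursors that are also under the control of Notch, were lower in shRNA RUS on both days, with summed levels of 81.9 to 106 TPM on the 16-library scale in shRNA CON against 44.2 to 59.8 in shRNA RUS on day 5, and of 139 to 145 and 71.9 to 91.4 on day 7. Of the 5 markers of intermediate progenitors, neuronal precursors that are known to express *Dll1*, 2 were lower on day 5 and 4 on day 7 (summed levels of 54.9 to 58.7 and 45.7 to 49.2 on day 5, and of 51.8 to 55.5 and 41.3 to 47.0 on day 7). Most of this sum was *Btg2*, with a mean of 43.0 TPM in shRNA CON on day 5. Among the 4 lower on day 7 were the low genes *Neurog2* and *Neurod1*. Their means on that day were 1.04 and 0.638 TPM in shRNA CON and 0.385 and 0.225 TPM in shRNA RUS. *Eomes*, the defining transcription factor of these cells, had a mean below 1 TPM in every group and did not pass the test (0.09 ± 0.20 (SE), limma adjusted p = 0.770 on day 5, and 0.36 ± 0.26, limma adjusted p = 0.283 on day 7). The 7 radial glial and NSC markers summed to 12504 to 14652 TPM in shRNA CON against 17777 to 21275 in shRNA RUS on day 5, and to 6858 to 7107 and 7046 to 7708 on day 7; 3 were higher and 1 lower on day 5, and 2 higher and 3 lower on day 7. *Vim* and *Fabp7* made up most of the sum, with means of 9181 and 3617 TPM in shRNA CON on day 5. The median log2 fold change of the 7 genes was -0.01 on day 5, and the lower one was *Nes* (-0.87 ± 0.07, adjusted p = 3.46e-05).

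Of the 7 endothelial markers, 6 had a mean below 1 TPM in each group (summed levels of 3.32 to 7.45 TPM over all libraries), with *Cldn5* at 0 in all shRNA CON and *Cdh5* at 0 in all shRNA RUS libraries of day 7. *Flt1* was among these 6, at a mean of 0.715 TPM in shRNA CON and 0.663 TPM in shRNA RUS on day 5, and of 0.865 and 0.850 TPM on day 7. *Kdr*, the remaining marker, was called lower in shRNA RUS on both days. Of the 6 mural markers, 3 on day 5 and 4 on day 7 had a mean below 1 TPM. The summed mural level, most of it *Acta2*, was 329 to 364 in shRNA CON against 266 to 316 in shRNA RUS on day 5, and 196 to 222 and 225 to 296 on day 7. Between the days, 5 of the 5 mural markers tested were called lower on day 7 in shRNA CON (median log2 fold change -0.74) and 4 of 5 in shRNA RUS (median -0.64), where *Pdgfrb* was higher. Over all genes, 21.6% were lower on day 7 in shRNA CON and 25.8% in shRNA RUS. *Kcnj8*, among these markers, had a mean of at most 0.198 TPM in any group. *Notch3* was called lower on day 7 in both shRNAs, and a link with the mural markers was not tested. Between the shRNAs on day 7, *Pdgfrb* and *Acta2* were called higher in shRNA RUS, and *Notch3* did not pass the test. Microglial markers summed to 26.8 to 29.9 and 20.6 to 28.2 on day 5 and to 59.2 to 62.9 and 25.6 to 33.3 on day 7, and all 5 were called lower on day 7. Neuronal markers summed to 482 to 550 and 494 to 556 on day 5 and to 702 to 782 and 651 to 773 on day 7, astrocytic ones to 2540 to 2666 and 3378 to 3611 on day 5 and to 1065 to 1082 and 1187 to 1358 on day 7. Most of the astrocytic sum on day 5 was *Gfap*, with means of 1848 TPM in shRNA CON and 2791 TPM in shRNA RUS. Over the 5 astrocytic genes the log2 fold change had a median of 0.01 on either day. Of the 6 neuronal genes, *Stmn2* was higher and *Map2* and *Dcx* lower in shRNA RUS on day 5, and *Rbfox3* and *Snap25* were higher and *Map2* and *Stmn2* lower on day 7. Meningeal fibroblast markers stayed below 10 TPM in sum, with a maximum of 9.30. Of the 3 tested, 0 were called on day 5, and 2 were higher in shRNA RUS on day 7 (median log2 fold change 0.93), beside 23.4% of all genes.

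The genes with the pattern most like that of a member over the 16 libraries, among the 14335 that reached a mean of 1 TPM in every group, are given as a description, since libraries of a group share their treatment and day. For *Notch2* they were *Sh3pxd2b*, *Gm18290* and *Hcfc1* (Pearson r of 0.986, 0.985 and 0.982). For *Notch1* they were *Gm37795*, *Bmf* and *Gm2427* (r of 0.942, 0.930 and 0.912), and for *Dll1* *Zdhhc23*, *Ints3* and *Miat* (r of 0.950, 0.941 and 0.934). Within the family, *Notch1* and *Notch2* had an r of 0.68, *Dll1* and *Lfng* of 0.69, and *Notch2* and *Mfng* of -0.82.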

How the data were processed

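PolyA RNA-seq libraries of NSC fell into 4 groups of 4 by their labelled shRNA and day. The authors aligned reads with STAR to mm10 with the transcript table of GRCm38.99, quantified them with RSEM and deposited TPM per library in 1 table per day; tool versions are not given in the sources used here. The tables also hold the authors' own comparison (base mean, log2 fold change, its standard error, statistic and p-values), which was not used. Lines without a gene name (3 on day 5, none on day 7) were left out, and the fit across days used the 55136 symbols that stand on 1 line in both tables.

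For each library of a fit, a factor was computed as the median, over the 13993 (day 5), 14814 (day 7) or 13584 (16 libraries) genes at 1 TPM or more throughout, of the ratio to the gene's geometric mean. TPM were divided by it, and 0.1 was added before the log2, so fold changes of low genes are understated. Where the mean reached 0.1 TPM, a gene was tested with limma 3.58.1 in R 4.3.3 (lmFit, eBayes with a trend; two-sided), across the whole table, and a Benjamini-Hochberg adjusted p under 0.05 was a call. Each knockdown comparison used the 8 libraries of its day, and the comparisons between days and the interaction used 1 fit of 16 libraries. The code was tested on simulated data. No library repeated another: any pair of libraries of a day differed in at least 96.5% of the values compared.

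All 10 members are named. Of 45 other pathway genes, the 3 largest called increases and decreases of each knockdown comparison with a mean of at least 1 TPM are named with values, with *Itch*, *Hes1* and *Hes5*. *Rfng*, *Mib1*, *Mib2*, *Dlk2*, *Dner*, *Dtx4*, *Aph1b*, *Heyl*, *Neurog1*, *Neurog2* and the genes of receptor modification were named after their values were seen. Some pathway genes that the rule or lists hold are not reported here by name. Members, lists and tests were chosen with earlier results of these data known. Alternatives added 0.01 or 1 before the log2, filtered at 1 TPM or not at all, used TPM as deposited, quantile normalization or the 75th percentile for scaling, dropped the trend, took the replicate number as a block, or left out each library in turn. Replicate numbers did not pair the libraries: deviations from the group means of same-numbered libraries had correlations of -0.23 to -0.02 on day 5 and 0.03 to 0.12 on day 7. Positions came from GENCODE vM21 and promoters from RefSeq (GRCm38.p6), by symbol. Figures were drawn with matplotlib 3.10.9 in Python 3.11.15.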

Additional observations from a re-analysis of the deposited data

Results flagged for a closer look

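Both receptors that changed sign between the days stand out by the test of that difference: the knockdown effect was more positive on day 7 by 1.01 on the log2 scale for *Notch1* and by 1.46 for *Notch2*, and the effect of each was below 0 on day 5 and above 0 on day 7.

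Single libraries stood apart from the other 3 of their group in 4 of the 40 groups of 4 values (10 genes in 4 groups), where chance alone sets about 1 in 20 apart by this measure, the gap to the nearest library over the range. *Notch1* was at 46.8 scaled TPM in replicate 1 of shRNA RUS on day 7, below the other 3. *Dll3* was at 2.90 in replicate 4 of shRNA RUS on day 5, below the other 3, and at 5.74 in replicate 2 of shRNA RUS on day 7, above them. *Jag1* was at 4.40 in replicate 4 of shRNA CON on day 5, below the other 3.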

How the results depend on the processing

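Of 1090 values of a member under an alternative, 1015 kept direction and side of the threshold, 29 lost the call, 33 gained it and 13 turned sign, none of the last with a call. Over fits that each left out 1 library, the members called higher on day 5 ranged from 0 to 1 (*Notch4*, without replicate 4 of shRNA RUS). Members lower on day 7 than on day 5 in shRNA CON were 5 under quantile normalization in place of 3, and members with a more positive effect on day 7 were 4 with TPM as deposited in place of 2. Sign turned for *Notch4* on day 7 with scaling to the 75th percentile (-0.030) and over left-out libraries (-0.25 to 0.24), and between the days in shRNA RUS with 1 added (-0.0042), with quantile normalization (-0.28) and over left-out libraries (-0.30 to 0.27). It turned for *Dll1* between the days in shRNA RUS (0.21) and for *Jag2* in the interaction (0.092), both with TPM as deposited, and for *Jag2* over left-out libraries (-0.17 to 0.087). The cause was not tested. Over all genes, TPM as deposited gave 1768 higher calls on day 5 in place of 3349, 3537 lower calls between the days in shRNA RUS in place of 6122, and 5686 positive and 2049 negative calls in the interaction in place of 3624 and 3459.

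With the replicate block, 5 members were lower on day 5 in place of 6, since *Mfng* was lost (adjusted p = 0.0979), and 2231 genes were higher on day 5 in place of 3349. No other call of a member changed with the block, and of 8 libraries, 0 on day 5 and 3 on day 7 correlated best with their own number in the other group. Low levels limit *Notch4*, and depth is unknown.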
